A study of Mus musculus with 2 samples.

Results

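Fibroblast growth factors (FGFs) are secreted proteins that bind receptor tyrosine kinases, and 10 genes of this system were described across the cell types of the postnatal mouse lung. The genes were taken from the expression matrices by symbol. They were 5 ligands (*Fgf1*, *Fgf2*, *Fgf7*, *Fgf10* and *Fgf18*) and 5 receptor genes (*Fgfr1*, *Fgfr2*, *Fgfr3*, *Fgfr4* and *Fgfrl1*), of 27998 genes counted. An FGF, its receptor and heparan sulfate form a complex at the cell surface that activates the receptor's kinase and, through docking proteins, the MAP kinase cascade, and the cascade switches on its own brakes such as the Sprouty proteins. In the lung, FGF10 from the mesenchyme is known for driving branching and epithelial growth through FGFR2, and FGFR3 and FGFR4 are known for their part in the formation of alveoli after birth. Loss of small vessels and alveoli under high oxygen is the hallmark of the rodent model studied here.

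RNA of single cells was sequenced from whole lungs of C57BL/6 mice (C57BL/6J in the methods), perfused, digested with enzymes and freed of red cells. The mice were 2 weeks old. The room air group breathed 21% O2 and the hyperoxia group 80% O2, from birth to postnatal day 14. Each group was 1 library made from the mixed lungs of 8 mice. With 1 library per group no value below has a replicate check, no test was made, and the intervals given are exact 95% intervals that cover counting error only.

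Sequencing gave 39593888 UMIs (unique molecular identifiers, 1 per captured transcript) over 4234 barcodes for room air, and 111934936 UMIs over 13223 barcodes for hyperoxia. After filters and removal of doublets, 3680 cells with a median of 8067 UMIs and 10472 cells with a median of 7237.5 UMIs were kept. The libraries shared 17 barcodes. Clusters were called "-like" a cell type from their marker genes, which included none of the FGF genes, and neither the 10 genes nor the other pathway genes entered the clustering. Of 69 clusters, 5 were not named or were cycling cells, with 75 cells in room air and 245 in hyperoxia. No ciliated or mesothelial cluster was found. Levels are CPM, counts per 1000000 UMIs, of the summed counts of a cell type, and ratios are hyperoxia over room air.

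The libraries clustered apart in several cell types. Clusters drawn to 90% or more from a single library took up 76.5% of the room air and 83.3% of the hyperoxia Tcf21 fibroblast-like cells. Room air cells of this type lay mainly in 1 cluster of 173 such cells, while hyperoxia cells filled a cluster of 553 and another of 479 that was led by *Saa3*, an acute phase gene. The same share was 8.93% and 86.5% for AT2-like cells, 73.8% and 55.2% for gCap-like cells (general capillary), 9.87% and 55.1% for aCap-like cells (aerocyte capillary) and 53.4% and 46.9% for myofibroblast-like cells. For alveolar macrophage-like cells the share was 84.4% and 96.3%. It was 0 in both libraries for AT1-like, artery-like, vein-like, smooth muscle-like and pericyte-like cells. Whether such a cluster is a state of the tissue or a property of its library cannot be told apart here. Values were therefore also taken over the 52 clusters that held both libraries, which kept 2585 cells (70.2%) and 6697 cells (64.0%).

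The main producers were large enough to compare. There were 230 and 1248 Tcf21 fibroblast-like cells, 431 and 796 myofibroblast-like cells, 168 and 898 AT2-like cells and 66 and 129 AT1-like cells in room air and hyperoxia. Smooth muscle-like cells numbered 45 and 278, and pericyte-like cells 128 and 231. Levels were ordered over the 18 cell types with at least 30 cells in each library.

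The ligands fell into an epithelial and capillary gene, *Fgf1*, and 4 stromal genes. Stromal cells held 96.3% (room air) and 97.2% (hyperoxia) of *Fgf2* UMIs. The stromal share of *Fgf7* was 96.0% and 98.5%, and that of *Fgf10* was 96.7% and 97.4%. The stromal share of *Fgf18* was 93.3% and 96.9%. Such shares follow how many cells of each kind the suspension held, and the levels per cell type below do not.

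**Figure D1:**
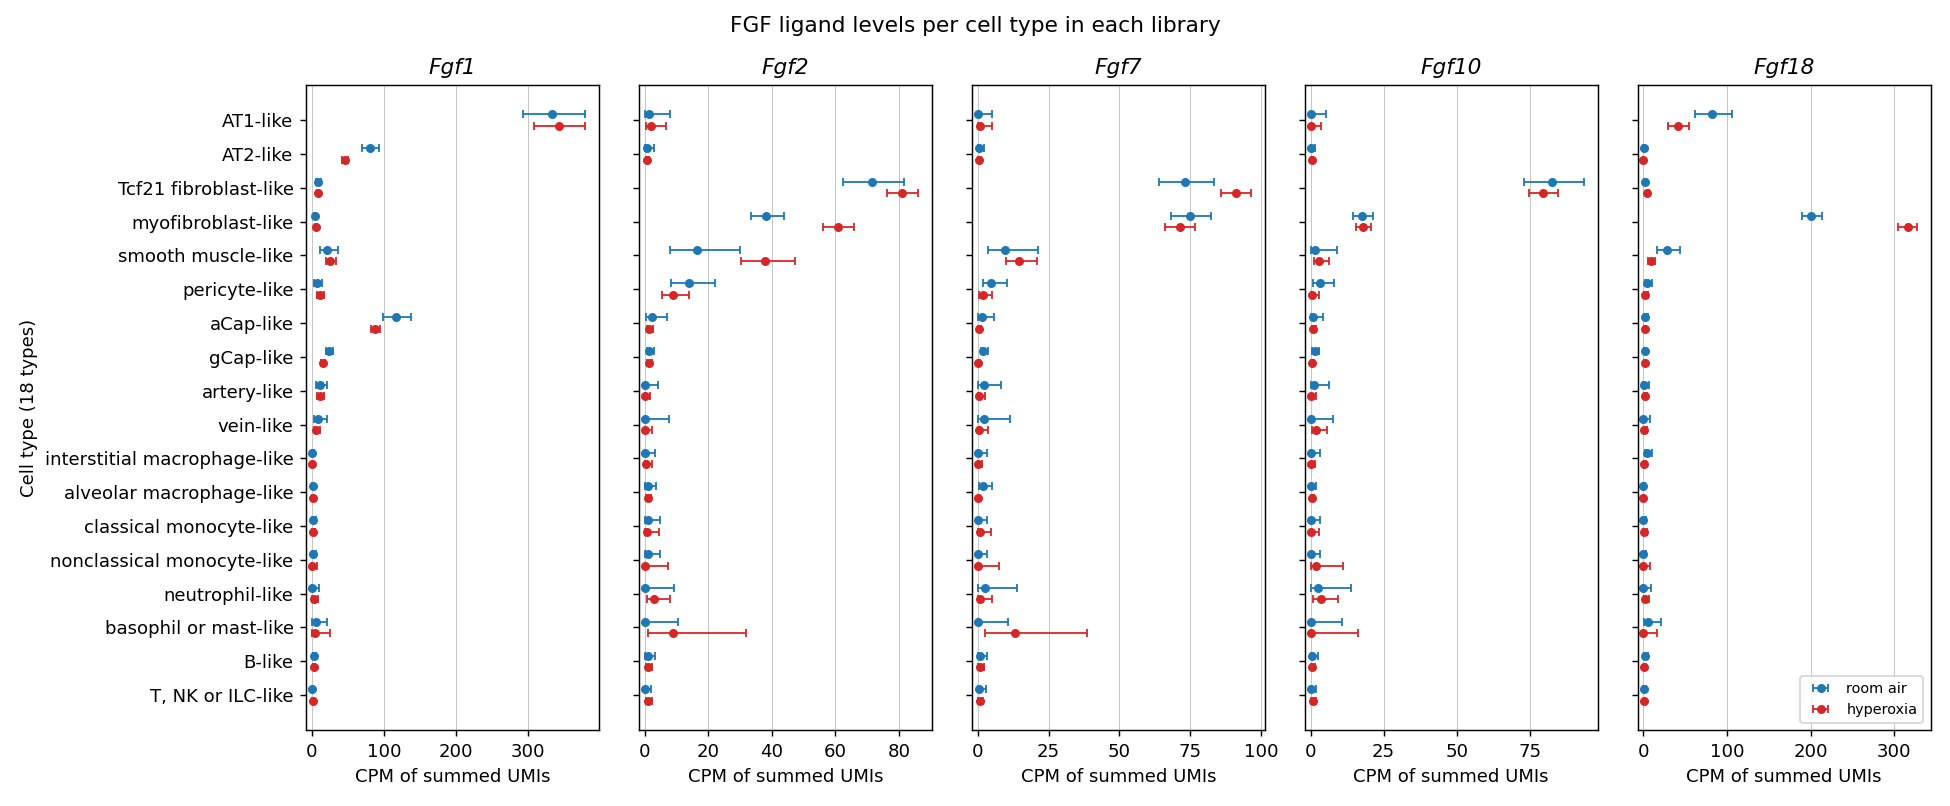
CPM of the 5 ligands (x axes, each with its own scale) in 18 cell types (y axis), for room air (blue) and hyperoxia (red). Points are summed-count CPM and bars are exact 95% Poisson intervals; *Fgf1* is highest in AT1-like cells (333 and 342 CPM) and *Fgf18* in myofibroblast-like cells (201 and 316 CPM).

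*Fgf1* (ENSMUSG00000036585) encodes a ligand that can activate all FGF receptors and lacks a signal peptide. AT1-like cells, the flat cells of gas exchange, held 333 CPM (interval 292 to 379) with room air against 342 CPM (308 to 379) with hyperoxia, a log2 ratio of 0.04 (-0.20 to 0.28). It was the ligand's highest level in each library. aCap-like cells followed with 116 and 87.9 CPM, a log2 ratio of -0.41 (-0.66 to -0.14). AT2-like cells, which make surfactant, held 80.8 and 45.6 CPM, a log2 ratio of -0.83 (-1.06 to -0.59). Smooth muscle-like cells held 21.2 and 25.2 CPM, and gCap-like cells held 24.1 and 14.7 CPM, the latter with a log2 ratio of -0.71 (-1.09 to -0.33). The level in hyperoxia was thus under that in room air in AT2-like and both capillary types, and the AT1-like levels cannot be told apart. The *Fgf1* UMIs of the libraries were split between lineages. The epithelial part was 58.2% (54.9 to 61.4) with room air and 44.1% (42.0 to 46.3) with hyperoxia. Endothelial cells (ECs) held 32.5% and 42.8%, of which aCap-like cells alone held 16.3% and 35.0% of all *Fgf1* UMIs. aCap-like cells were 152 of the room air cells and 1122 of the hyperoxia cells.

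*Fgf2* (ENSMUSG00000037225, chromosome 3, 37348477 to 37410106, plus strand of GRCm38.p6), which encodes basic FGF, was led by Tcf21 fibroblast-like cells, the fibroblasts beside AT2 cells. They held 71.5 CPM with room air against 81.0 CPM with hyperoxia, a log2 ratio of 0.18 (-0.03 to 0.40). Myofibroblast-like cells held 38.3 and 60.7 CPM, a log2 ratio of 0.66 (0.44 to 0.89). Smooth muscle-like cells held 16.3 CPM from 10 UMIs and 38.0 CPM from 80 UMIs, so that *Fgf2* rose there by 1.22 on the log2 scale (0.27 to 2.34). Over the alternatives this ratio ranged from -1.74 to 1.35. Markers of smooth muscle-like cells were in fewer hyperoxia cells, with *Acta2* in 100% and 79.1% and *Des* in 91.1% and 56.8%. Their levels were higher, as for *Cnn1* at 638 and 1320 CPM. The order of these 3 types was the same in both libraries. Pericyte-like cells followed at 14 and 8.88 CPM, and no EC, epithelial or immune type with at least 30 cells per library reached 10 CPM.

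*Fgf7* (ENSMUSG00000027208, chromosome 2, 126034658 to 126091185, plus strand), keratinocyte growth factor, acts on epithelium through FGFR2. Tcf21 fibroblast-like cells held 73.1 CPM (63.8 to 83.3) with room air against 91.0 CPM (85.9 to 96.4) with hyperoxia, a log2 ratio of 0.32 (0.11 to 0.53). Myofibroblast-like cells held 75.0 CPM (68.1 to 82.3) and 71.2 CPM (66.0 to 76.6), a log2 ratio of -0.08 (-0.25 to 0.10). In room air these cell types cannot be told apart in *Fgf7*, and in hyperoxia the Tcf21 fibroblast-like level was above that of myofibroblast-like cells. Myofibroblast-like cells held 58.0% of *Fgf7* UMIs in room air and 33.8% in hyperoxia, while Tcf21 fibroblast-like cells held 29.8% and 56.5%.

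*Fgf10* (ENSMUSG00000021732, chromosome 13, 118714699 to 118792573, plus strand) is the mesenchymal ligand of epithelial FGFR2. Tcf21 fibroblast-like cells held 82.8 CPM with room air against 79.7 CPM with hyperoxia, a log2 ratio of -0.06 (-0.25 to 0.15). Myofibroblast-like cells held 17.6 and 17.9 CPM, a log2 ratio of 0.02 (-0.34 to 0.39). *Fgf10* was thus a gene of Tcf21 fibroblast-like cells in each library, at levels that differed by less than counting error. These cells held 65.1% and 76.6% of its UMIs. Among myofibroblast-like clusters, one led by *Aspn* and *Grem1* held 44.8 and 37.1 CPM of *Fgf10*, while one led by *Agt* and *Egfem1* held 5.49 and 4.65 CPM.

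*Fgf18* (ENSMUSG00000057967, chromosome 11, 33116970 to 33147400, minus strand) encodes a ligand known for its part in forming alveoli and elastic fibres. Myofibroblast-like cells, which build the septal tips, held 201 CPM (190 to 213) with room air against 316 CPM (305 to 327) with hyperoxia, a log2 ratio of 0.65 (0.56 to 0.75). They held 90.9% and 93.2% of its UMIs. The 4 largest myofibroblast-like clusters went the same way, at 185 and 403, 90.2 and 144, 242 and 294, and 260 and 404 CPM, though the first had 11 room air cells and the third 9 hyperoxia cells. AT1-like cells were second, at 81.9 CPM from 58 UMIs and 41.0 CPM from 44 UMIs, a log2 ratio of -1.0 (-1.60 to -0.41) that before rounding was just short of 2-fold. Over the alternatives this AT1-like ratio ranged from -1.55 to -0.08, so its size is uncertain. Smooth muscle-like cells held 27.7 CPM from 17 UMIs and 8.56 CPM from 18 UMIs, so that *Fgf18* fell by 1.69 there (interval -2.73 to -0.65). That fall rests on shallow cells. All 17 room air UMIs lay in a cluster with a median of 1325.5 UMIs per cell that was led by *Myh11* and *Cxcl9*, with 75.6 CPM in its 15 room air cells and 42.4 CPM in its 123 hyperoxia cells. The deeper smooth muscle-like cluster had 0 *Fgf18* UMIs in 30 room air cells, which allows up to 7.71 CPM, and 3.80 CPM in 155 hyperoxia cells. The *Fgf7* UMIs of smooth muscle-like cells were split in the same way, at 22.2 and 108 CPM in the shallow cluster and 2.57 and 1.63 CPM in the deeper one, so neither ligand can be ascribed to smooth muscle from these data.

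Over the ligands, Tcf21 fibroblast-like cells were highest for *Fgf2* and *Fgf10*, myofibroblast-like cells for *Fgf18*, and AT1-like cells for *Fgf1*. In stromal cells thinned to 2000 UMIs, 40 room air cells of 823 held *Fgf10* and 131 held *Fgf18*, and 0 held both, where 6.37 would if the genes were independent. In hyperoxia 207 cells of 2499 held *Fgf10* and 347 held *Fgf18*, and 18 held both, where 28.7 would. Those counts pool cell types that were led by different genes. Within hyperoxia myofibroblast-like cells alone, 31 cells of 792 held *Fgf10* and 322 held *Fgf18*, and 16 held both, where 12.6 would. In room air 6 of 426 such cells held *Fgf10* and 128 held *Fgf18*, and 0 held both, where 1.8 would.

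The receptor genes differed in where they were led. *Fgfr1* and *Fgfr4* were stromal, *Fgfr2* was epithelial, *Fgfr3* was shared by Tcf21 fibroblast-like cells and ECs, and *Fgfrl1* was low and widely spread.

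**Figure D2:**
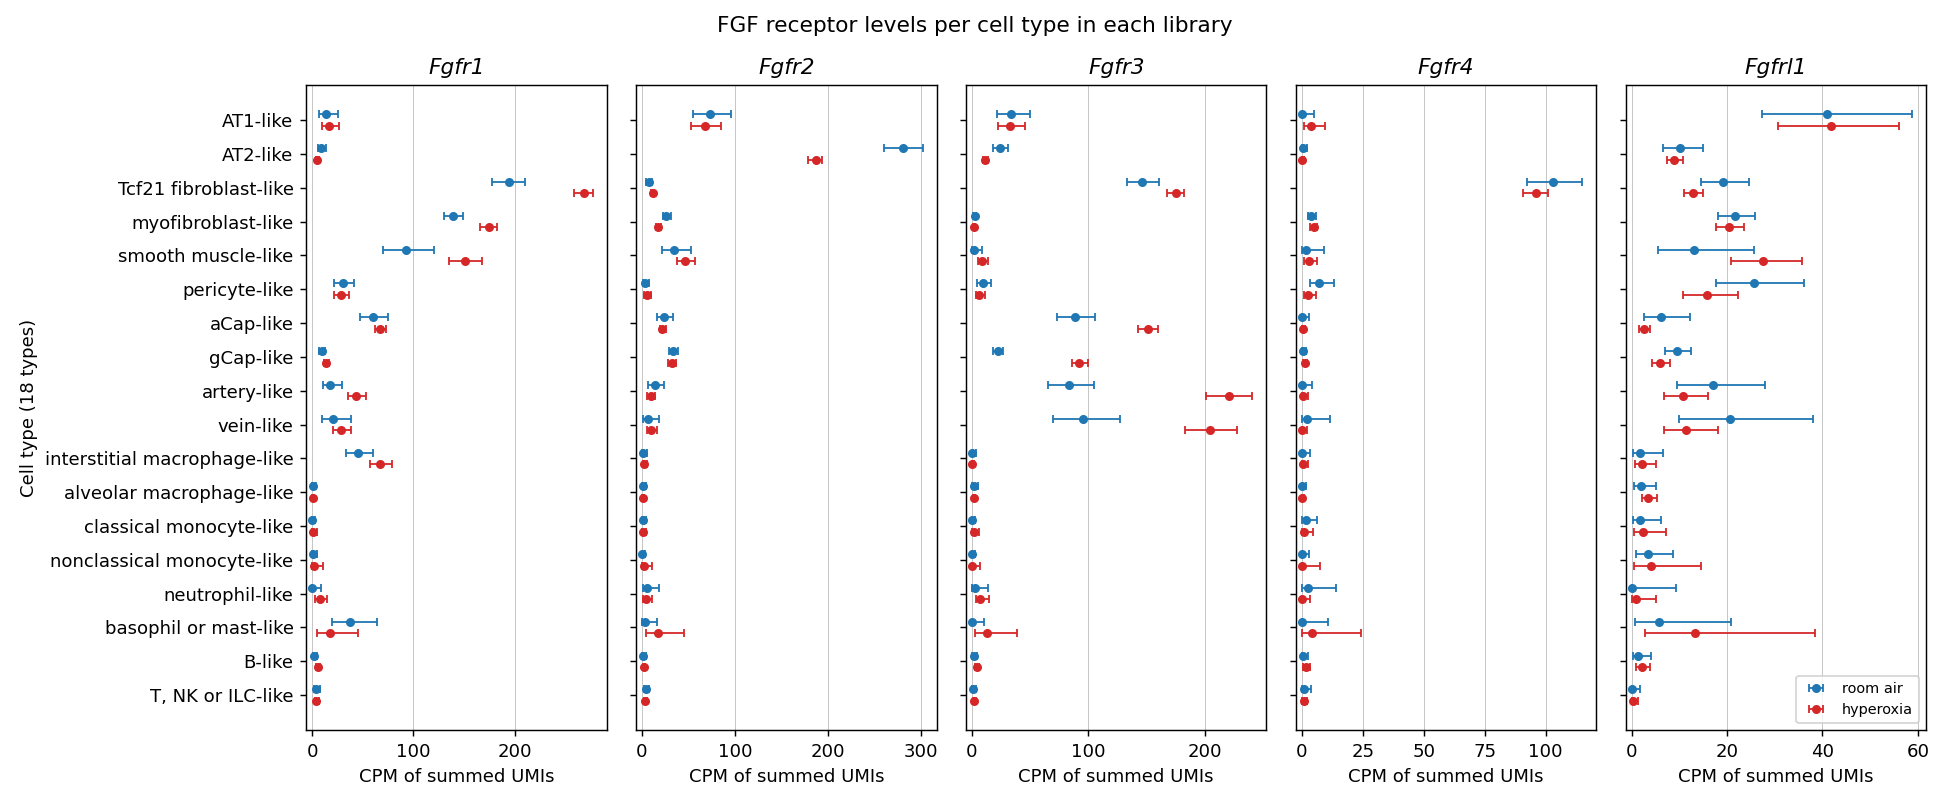
CPM of the 5 receptor genes (x axes, each with its own scale) in 18 cell types (y axis), for room air (blue) and hyperoxia (red). Points are summed-count CPM and bars are exact 95% Poisson intervals; *Fgfr2* is highest in AT2-like cells (281 and 187 CPM), and *Fgfr3* in artery-like cells stands at 83.8 and 221 CPM.

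*Fgfr1* (ENSMUSG00000031565, chromosome 8, 25518759 to 25575718, plus strand) encodes the main receptor of mesenchyme. Tcf21 fibroblast-like cells held 194 CPM with room air against 268 CPM with hyperoxia, a log2 ratio of 0.47 (0.34 to 0.60). Myofibroblast-like cells held 139 and 175 CPM, a log2 ratio of 0.33 (0.21 to 0.45). Smooth muscle-like cells held 92.8 and 151 CPM, a log2 ratio of 0.70 (0.29 to 1.13). The level was thus higher in hyperoxia in all 3 of these types, by less than 2-fold, and pericyte-like cells, at 30.4 and 28.1 CPM, did not share it. Interstitial macrophage-like cells held 45.4 and 67.3 CPM, a log2 ratio of 0.57 (0.10 to 1.06) that reversed to -0.25 with double the doublets removed. Among ECs, aCap-like cells held 60.2 CPM (47.5 to 75.2) and 67.3 CPM (61.9 to 73.1), a log2 ratio of 0.16. Over the alternatives it ranged from -0.1 to 0.82, the highest over clusters that held both libraries. gCap-like cells held 9.64 CPM (7.2 to 12.6) and 13.8 CPM (11.3 to 16.7), a log2 ratio of 0.52 that ranged from 0.1 to 1.92. Artery-like cells held 18.1 CPM from 16 UMIs and 43.6 CPM from 94 UMIs, so that *Fgfr1* rose by 1.27 there (0.49 to 2.13). Over all ECs it stood at 21.5 and 43.3 CPM, a log2 ratio of 1.01 (0.78 to 1.25), which follows in part the mix of EC types, since aCap-like cells were 152 of 1041 ECs in room air and 1122 of 2598 in hyperoxia. With the room air levels of each type at the hyperoxia mix the pooled level is 34.9 CPM, which leaves a log2 ratio of 0.31. Lymph-like ECs, too few to enter the order at 12 and 42 cells, held 112 and 163 CPM. AT1-like cells, at 14.1 and 16.8 CPM, and AT2-like cells, at 9.02 and 4.95 CPM, were low.

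*Fgfr2* (ENSMUSG00000030849, chromosome 7, 130162451 to 130266808, minus strand) encodes the epithelial receptor of FGF7 and FGF10. AT2-like cells held 281 CPM (261 to 302) with room air against 187 CPM (179 to 194) with hyperoxia, a log2 ratio of -0.59 (-0.71 to -0.47). AT1-like cells held 73.5 and 68.0 CPM, a log2 ratio of -0.11 (-0.64 to 0.43). The AT2-like level was lower in hyperoxia and the AT1-like levels cannot be told apart. Smooth muscle-like cells held 34.2 and 46.6 CPM, and gCap-like cells 33.4 and 32.4 CPM. Myofibroblast-like cells held 26.4 and 17.4 CPM, a log2 ratio of -0.60 (-0.92 to -0.28). Epithelial cells held 64.8% and 70.0% of *Fgfr2* UMIs, most of them AT2-like. The UMIs are 3′ counts, which cannot tell the epithelial and mesenchymal splice forms of FGFR1, FGFR2 and FGFR3 apart.

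*Fgfr3* (ENSMUSG00000054252, chromosome 5, 33721724 to 33737068, plus strand) encodes a receptor that restrains bone growth and acts with FGFR4 in the alveolar lung. In Tcf21 fibroblast-like cells it stood at 146 CPM with room air against 175 CPM with hyperoxia, a log2 ratio of 0.25 (0.11 to 0.40). Myofibroblast-like cells held 2.40 and 1.82 CPM, near the 1.83 and 4.10 CPM of B-like cells. *Fgfr3* thus set the fibroblast classes apart. gCap-like cells held 22.4 CPM (18.6 to 26.8) and 92.4 CPM (85.7 to 99.5), and *Fgfr3* rose there by 2.04 (1.76 to 2.33). The markers of this type also differed, with *Aplnr* at 301 and 120 CPM, *Kit* at 484 and 246 CPM and *Gpihbp1* at 1190 and 760 CPM. *Sema3c*, at 1190 and 2380 CPM, and *Cd93*, at 1650 and 2580 CPM, went the other way. *Fgfr3* rose in artery-like cells from 83.8 to 221 CPM, by 1.40 (1.04 to 1.77). It rose in vein-like cells from 95.1 to 205 CPM, by 1.11 (0.66 to 1.58), which fell short of 2-fold with a stricter cell filter, at 0.87, and with double the doublets removed, at 0.95. In aCap-like cells it stood at 88.3 and 151 CPM, a log2 ratio of 0.77 (0.50 to 1.07). The markers of aCap-like cells were lower in hyperoxia, with *Ednrb* at 1290 and 537 CPM and *Emp2* at 3690 and 1730 CPM. All 4 of these EC types thus held a higher level of *Fgfr3* in hyperoxia, and over all ECs the level was 43.6 and 136 CPM, a log2 ratio of 1.64 (1.48 to 1.80), or 1.14 with the mix of EC types held at that of hyperoxia. Over gCap-like clusters that held both libraries, the *Fgfr3* level was 31.7 CPM in 189 cells and 61.3 CPM in 448 cells, a log2 ratio of 0.95 that fell short of 2-fold. AT2-like cells went the other way, from 23.9 to 11.7 CPM, and *Fgfr3* fell by 1.03 there (interval -1.48 to -0.58). It fell short of 2-fold over AT2-like clusters with both libraries, at -0.75, in AT2-like cells free of marker UMIs of other lineages, at -0.21 (-1.15 to 0.85) from 12 and 45 UMIs, and under each of the 3 other scalings of the totals. AT1-like cells held 33.9 and 32.6 CPM.

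*Fgfr4* (ENSMUSG00000005320, chromosome 13, 55152818 to 55168759, plus strand), the receptor that with klotho beta serves bile acid control in liver, was almost wholly a gene of Tcf21 fibroblast-like cells here. They held 103 CPM (92.3 to 115) with room air against 96.0 CPM (90.7 to 101) with hyperoxia, a log2 ratio of -0.11 (-0.28 to 0.08). Their share of *Fgfr4* UMIs was 86.4% and 91.6%. The next types, pericyte-like at 7.02 and 2.47 CPM and myofibroblast-like at 3.94 and 4.86 CPM, were far lower.

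*Fgfrl1* (ENSMUSG00000008090, chromosome 5, 108694229 to 108706950, plus strand) encodes a receptor without a kinase domain. AT1-like cells held 41.0 CPM from 29 UMIs and 41.9 CPM from 45 UMIs, a log2 ratio of 0.03 (-0.67 to 0.76). Myofibroblast-like cells held 21.7 and 20.4 CPM. Smooth muscle-like cells held 13 CPM from 8 UMIs and 27.6 CPM from 58 UMIs, and *Fgfrl1* rose by 1.08 there (0.01 to 2.36). The rise was 0.89 with the stricter cell filter, and 0.76 at the lowest over the alternatives. Tcf21 fibroblast-like cells held 19.2 and 12.8 CPM, a log2 ratio of -0.58 (-1.02 to -0.13). With so few UMIs, most *Fgfrl1* ratios were wide, as in pericyte-like cells at 25.7 and 15.8 CPM, with a log2 ratio of -0.71 (-1.45 to 0.04).

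**Figure D3:**
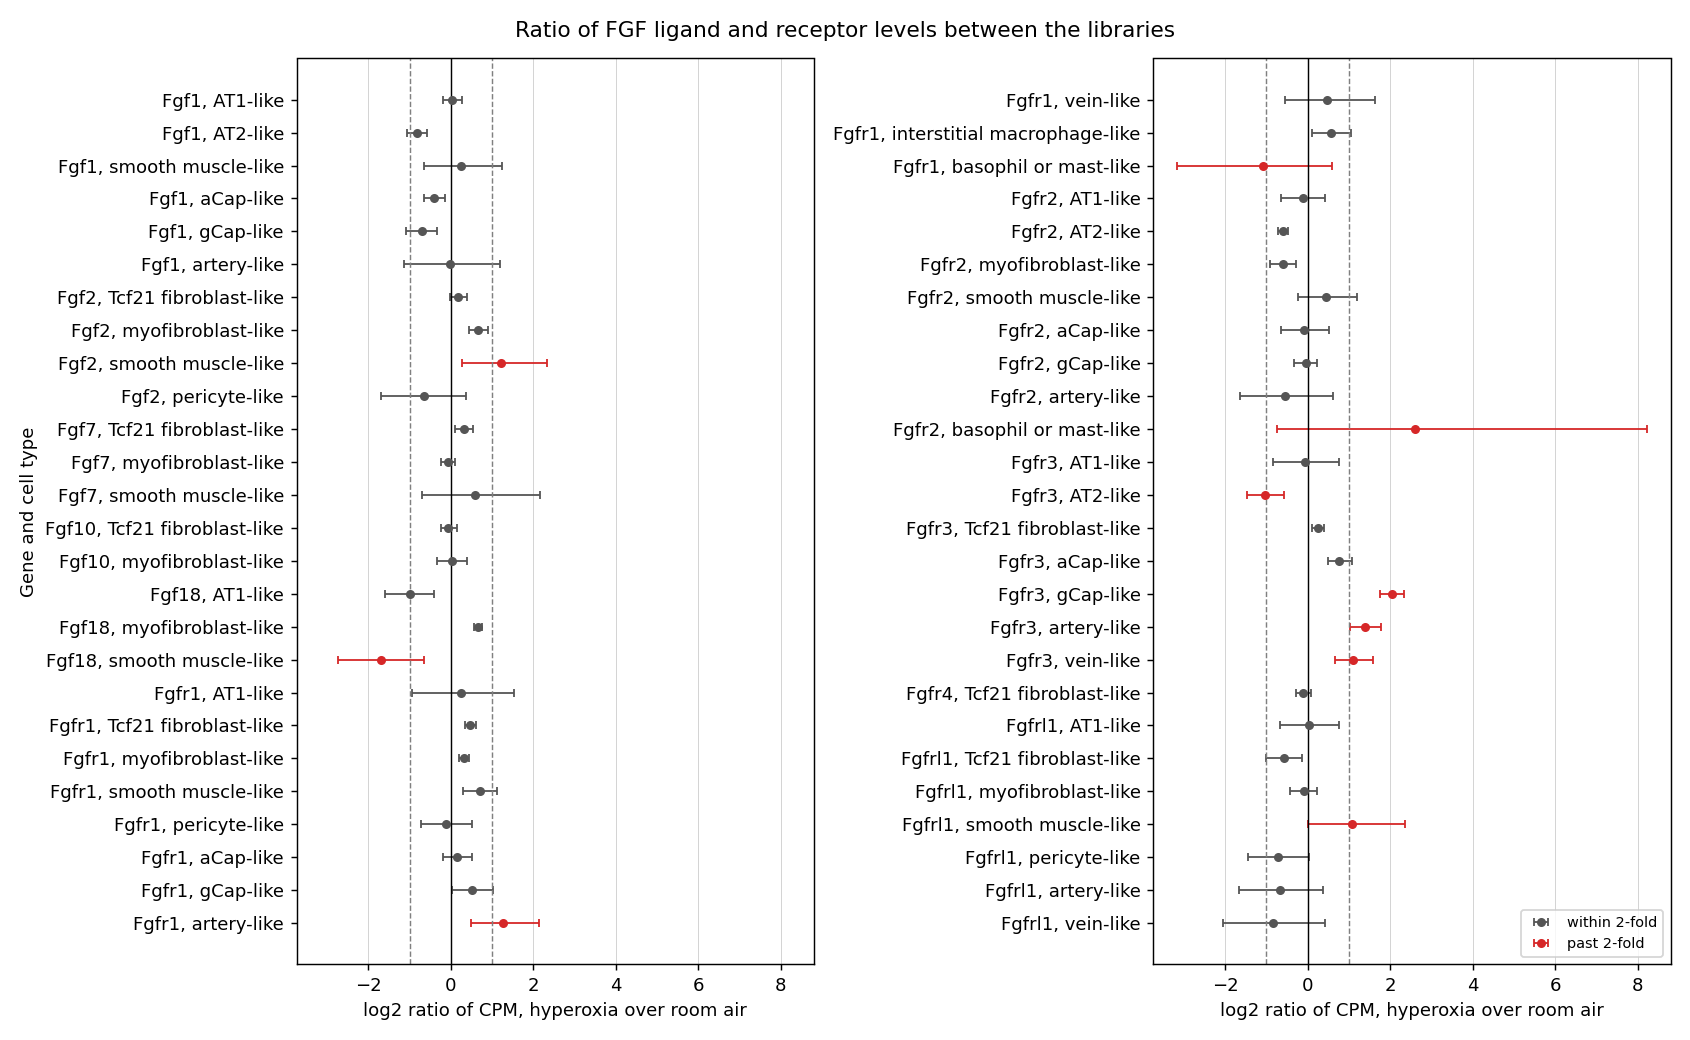
Log2 ratios of CPM, hyperoxia over room air (x axes), for the 52 pairs of a gene and a cell type with a mean of at least 10 CPM (y axes). Bars are exact 95% intervals for counting error, dashed lines mark 2-fold, and red marks the 10 pairs past it, with gCap-like *Fgfr3* at 2.04.

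Of the 52 pairs of a gene and a cell type that reached a mean of 10 CPM, in 12 cell types, 10 were past 2-fold (19.2%), 7 of them higher in hyperoxia and 3 lower. Over all genes in the 18 types the same rule took 10881 of 140495 pairs, or 7.74%. The interval lay to one side of 0 for 8 of the 10. Artery-like cells had 2 of 5 genes past 2-fold, where 7.07% of all genes tested were. gCap-like cells had 1 of 4, beside 5.46% of all genes, and vein-like cells 1 of 3, beside 13.3%. aCap-like cells had 0 of 4, beside 4.84%. Past 2-fold in these EC types were *Fgfr3* and, in artery-like cells, *Fgfr1*, and no ligand. Smooth muscle-like cells had 3 of 7 genes past 2-fold, beside 11.0% of all genes, and AT2-like cells 1 of 3, beside 3.42%. In AT1-like cells the count was 0 of 6, beside 9.13%. In Tcf21 fibroblast-like cells it was 0 of 7, beside 4.31%, and in myofibroblast-like cells 0 of 7, beside 3.0%. Pericyte-like cells had 0 of 3, beside 6.63%, and interstitial macrophage-like cells 0 of 1, beside 5.1%. Basophil or mast-like cells had 2 of 2, beside 24.9% of all genes. Those were *Fgfr1*, from 13 UMIs in room air and 4 in hyperoxia, and *Fgfr2*, from 1 and 4 UMIs, with intervals that span 0, in a cluster that also held platelet genes. The markers of this type were rarer in its hyperoxia cells, with *Mcpt8* in 27.5% of cells in room air and 0 in hyperoxia and *Cd200r3* in 32.5% and 6.0%, so its ratios compare cells that differ in their markers. Without this type 8 of 50 pairs were past 2-fold, beside 6.63% of all genes in the other 17 types.

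Ratios within Tcf21 fibroblast-like cells depended on which clusters were taken. Clusters of this type that held both libraries had 54 room air and 209 hyperoxia cells, most of them in a cluster with a median of 1164 UMIs per cell, against 15340.5 and 10893 over the whole type. There *Fgf7* stood at 10.8 CPM from 1 UMI and 39.0 CPM from 16 UMIs, a log2 ratio of 1.86 (-0.83 to 7.25), and *Fgf10* at 21.5 CPM from 2 UMIs and 56.1 CPM from 23 UMIs, a log2 ratio of 1.38 (-0.63 to 4.51). *Fgfr3* stood at 43.0 CPM from 4 UMIs and 78.0 CPM from 32 UMIs, a log2 ratio of 0.86 (-0.64 to 2.82), and *Fgfr4* at 43.0 CPM from 4 UMIs and 56.1 CPM from 23 UMIs, a log2 ratio of 0.38 (-1.17 to 2.37). Of all genes tested in these clusters 33.9% were past 2-fold, and these 4 intervals span 0, so no difference between the libraries is shown there for these genes. In the 14 room air and 30 hyperoxia Tcf21 fibroblast-like cells free of UMIs from marker genes of other lineages, the log2 ratio was -1.27 for *Fgf7* (-2.90 to 0.27), from 10 and 7 UMIs, and -1.57 for *Fgf10* (-3.79 to 0.41), from 7 and 4 UMIs. The *Fgfr1* ratio in the shared clusters was 0.28, from 172 and 210 CPM. It rests on the same 54 room air and 209 hyperoxia cells, so it is uncertain too. Myofibroblast-like *Fgf18* held without the clusters of 1 library, at 154 and 237 CPM, a log2 ratio of 0.63. So did AT2-like *Fgfr2*, at 283 and 190 CPM, a log2 ratio of -0.57. In aCap-like cells *Fgfr1* stood at 61.3 and 108 CPM over the shared clusters, a log2 ratio of 0.82.

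Shares of cells with a UMI depend on depth, so they are given before and after thinning. *Fgfr2* was seen in 92.3% of AT2-like cells in room air and 78.0% in hyperoxia, and in 40.2% and 31.9% once each cell was thinned to 2000 UMIs, which left out 4 and 49 cells. The background in B-like cells, which should lack these genes, was 0.721% and 0.579% for *Fgfr2* before thinning. Median depths were 15875.5 and 14077 UMIs for AT2-like cells and 4499.5 and 2919 for B-like cells. *Fgf18* was seen in 72.2% and 78.5% of myofibroblast-like cells, and after thinning in 128 of 426 and in 322 of 792 cells, the latter 40.7%, beside 1.20% and 0.290% of B-like cells. The median depth of myofibroblast-like cells was 14166 and 12071 UMIs, and thinning left out 5 and 4 of them. In Tcf21 fibroblast-like cells, thinned shares were 16.1% and 13.7% for *Fgf10*, 14.1% and 16.0% for *Fgf7*, and 11.5% and 15.8% for *Fgf2*. Before thinning, which left out 38 and 147 cells, the *Fgf10* share was 53.0% and 45.4%, that of *Fgf7* 50.4% and 50.9%, and that of *Fgf2* 115 of 230 cells in room air and 48.8% in hyperoxia. B-like cells held a UMI of *Fgf10* in 0.240% and 0.145%, of *Fgf7* in 0.481% and 0.290%, and of *Fgf2* in 0.481% and 0.290%. *Fgf1* was seen in 69.7% and 69.0% of AT1-like cells, and in 44.0% and 41.3% after thinning, which left out 16 and 37 cells, at median depths of 7358.5 and 6464 UMIs, beside 1.20% and 0.797% of B-like cells. *Fgfr3* was seen in 13.6% and 40.6% of gCap-like cells, and in 5.37% and 17.0% after thinning, at median depths of 7086 and 7995 UMIs, beside 0.962% and 1.23% of B-like cells. All of these shares stood above the B-like background.

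Some UMIs can be given to 1 gene with certainty only if counting used the strand. *Fgf2* overlaps *Nudt6* (645 UMIs in all) and *Fgf2os* (10 UMIs) on the opposite strand, *Fgf1* overlaps *Arhgap26* (2749 UMIs) and *Fgf7* overlaps *Fam227b* (1 UMI). All of these partners lie on the opposite strand, so counting that used the strand would keep their reads apart. Whether it did is not given in the sources used here.

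The genes whose levels over the 18 types were most like each gene, among 12187 genes, were taken by the mean Pearson r of log2(CPM + 1) over the libraries, as a description of 18 points that share their libraries. For the stromal ligands these were *Gli2*, *B3gnt9* and *Cdh11* for *Fgf2* (0.94, 0.93 and 0.93), *Gli2*, *Cdh11* and *Hhip* for *Fgf7* (0.93, 0.93 and 0.92), and *Slitrk6*, *Srpx2* and *Gata5* for *Fgf10* (0.91, 0.91 and 0.89). For *Fgf18* they were *P4ha3*, *Ddc* and *Wnt9a* (0.94, 0.88 and 0.86), and for *Fgf1* they were *Emp2*, *Slc22a23* and *Pvrl3* (0.91, 0.88 and 0.88). *Gli2* and *Cdh11* were thus shared by *Fgf2* and *Fgf7*. For *Fgfr1* they were *Tspan3*, *Mmp14* and *Arl3* (0.90, 0.88 and 0.86), and for *Fgfr2* they were *Paqr8*, *Prrg3* and *St6galnac2* (0.87, 0.86 and 0.85). For *Fgfr3* they were *S100a16*, *Zfp697* and *Efnb1* (0.90, 0.88 and 0.86), for *Fgfr4* they were *Adrb3*, *Mfap4* and *Fat3* (0.93, 0.91 and 0.90), and for *Fgfrl1* they were *Tead1*, *Hspg2* and *Ptov1* (0.90, 0.89 and 0.89). *Hhip*, *Emp2* and *Mfap4* were among the markers used to name clusters, so their pattern over the types is in part built in.

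Other genes of the pathway were counted by the same rule, over all clusters of a type, and were not run under other scalings or subsets of cells. Of 17 other FGF ligands, *Fgf9* and *Fgf12* reached a mean of 10 CPM in the leading cell types. *Fgf9* stood at 40.7 and 80.4 CPM in myofibroblast-like cells, a log2 ratio of 0.98 (0.77 to 1.20), and *Fgf12* at 12.0 and 13.3 CPM in Tcf21 fibroblast-like cells. *Fgf9*, *Fgf2* and *Fgf18* were thus 3 ligands whose level in myofibroblast-like cells was higher in hyperoxia, by less than 2-fold each. Neither klotho co-receptor reached 10 CPM in these types.

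Feedback targets of FGF signalling were a list of 9 genes of the Sprouty, Spred, Dusp and Etv families and *Il17rd*, of which *Spry1*, *Spry2* and *Etv5* were lower in hyperoxia in AT1-like and AT2-like cells. In AT1-like cells 3 of 5 tested were past 2-fold, where 9.13% of all genes tested were, all lower, with a median log2 ratio of -1.23 beside 0.00 over all genes. *Spry1*, an inhibitor of receptor signalling, stood at 315 and 118 CPM and fell by 1.41 (interval -1.74 to -1.09). *Etv5*, a transcription factor induced by FGF, stood at 50.9 and 4.66 CPM and fell by 3.45 (interval -5.16 to -2.09). *Spry2* stood at 124 and 53.1 CPM and fell by 1.23. In AT2-like cells 3 of 6 were past 2-fold, beside 3.42% of all genes, the same genes and again lower, with a median of -0.66 beside 0.02 over all genes. *Etv5* stood there at 399 and 196 CPM and fell by 1.02, *Spry1* at 178 and 85.2 CPM and fell by 1.07, and *Spry2* at 136 and 62.5 CPM and fell by 1.13. The *Etv5* fall is close to the 2-fold limit. The *Fgfr3* ratio of -1.03 in these cells fell short of it under other scalings, which were not run for *Etv5*. *Dusp6*, a phosphatase of the MAP kinase ERK, stood at 33.3 and 27.3 CPM in AT2-like cells and did not pass 2-fold. Values pooled over all epithelial cells follow the mix of types, since AT2-like cells were 168 of 263 in room air and 898 of 1034 in hyperoxia. Pooled, 0 of 6 were past 2-fold, beside 6.28% of all genes, and the log2 ratio was -0.77 for *Spry1*, -0.70 for *Spry2*, -0.23 for *Etv5*, 0.41 for *Spred1* and 0.43 for *Spred2*. With the mix held at that of hyperoxia it was -1.11 for *Spry1*, -1.12 for *Spry2*, -1.04 for *Etv5*, -0.02 for *Spred1* and -0.21 for *Spred2*. In Tcf21 fibroblast-like cells 1 of 8 was past 2-fold, beside 4.31% of all genes, with *Spry2* at 30.9 and 13.6 CPM, where it fell by 1.19. In myofibroblast-like cells 1 of 9 was, beside 3.0%, with *Etv4* at 16.4 and 40.0 CPM, where it rose by 1.28. In smooth muscle-like cells 2 of 8 were, beside 11.0%, with *Spry1* at 91.2 and 44.2 CPM, where it fell by 1.04, and *Etv5* at 27.7 and 9.04 CPM, where it fell by 1.62. In artery-like cells 2 of 7 were, beside 7.07%, with *Spry2* at 81.6 and 35.7 CPM, where it fell by 1.19, and *Spry4* at 127 and 58.4 CPM, where it fell by 1.12. Neither gCap-like nor aCap-like cells had any of 7 tested past 2-fold, beside 5.46% and 4.84% of all genes. Pericyte-like cells had 0 of 9, beside 6.63%, and vein-like cells 0 of 7, beside 13.3%. Over the 10 epithelial, stromal and EC types, 12 of 73 pairs were past 2-fold, 1 higher and 11 lower, beside 6.86% of all genes. Over all ECs *Spry2* stood at 61.7 and 27.2 CPM and fell by 1.18 (interval -1.36 to -1.01). Its log2 ratio was -0.96 with the mix of EC types held at that of hyperoxia.

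Heparan sulfate genes shape how FGFs bind. Over the 10 epithelial, stromal and EC types, 12 of 89 pairs of a heparan sulfate enzyme and a type were past 2-fold, 8 higher and 4 lower in hyperoxia, and 9 of 67 pairs of a proteoglycan and a type, 6 higher and 3 lower, beside 6.86% of all genes in these types. 7 of the 8 higher pairs of enzymes were of 1 gene. *Sulf2*, an extracellular sulfatase that trims heparan sulfate, stood at 2.74 and 73.8 CPM in myofibroblast-like cells and rose by 4.75 (4.04 to 5.57). It stood at 2.27 and 19.6 CPM in Tcf21 fibroblast-like cells and rose by 3.11, and at 1.56 and 37.0 CPM in pericyte-like cells, where it rose by 4.57. In ECs it stood at 0.782 and 22.7 CPM in aCap-like cells, a rise of 4.86 (2.37 to 10.17), and at 3.40 and 40.3 CPM in artery-like cells, a rise of 3.57. The room air levels in Tcf21 fibroblast-like, pericyte-like, aCap-like and artery-like cells rest on under 10 UMIs each, so the sizes of these rises are uncertain. *Sulf2* was also past 2-fold upward in gCap-like cells, at 6.30 and 22.2 CPM, and in vein-like cells, at 12.4 and 44.0 CPM. Among immune cells it was so in nonclassical monocyte-like cells, at 10.3 and 30.1 CPM. It did not pass 2-fold in smooth muscle-like cells, at 48.8 and 31.9 CPM, in AT2-like cells, at 10.2 and 14.3 CPM, or in the macrophage types that held its highest levels, alveolar macrophage-like cells at 149 and 106 CPM and interstitial macrophage-like cells at 92.7 and 90.6 CPM. The proteoglycan *Sdc4* stood at 175 and 485 CPM in Tcf21 fibroblast-like cells and rose by 1.47, and at 415 and 864 CPM in myofibroblast-like cells, where it rose by 1.06. In aCap-like cells it stood at 32.8 and 102 CPM and rose by 1.63. In AT2-like cells *Sdc4* stood at 866 and 629 CPM. *Sdc1* rose in artery-like cells, at 17.0 and 61.7 CPM, by 1.86, and in vein-like cells, at 8.27 and 42.7 CPM, by 2.37. *Gpc3* in smooth muscle-like cells was also past 2-fold upward. The 3 lower pairs of proteoglycans were *Sdc3* and *Gpc3* in pericyte-like cells and *Gpc6* in vein-like cells. Among the enzymes, *Hs6st1* was past 2-fold downward in smooth muscle-like cells. *Hs3st1*, a 3-O-sulfotransferase, stood at 38.5 and 13.2 CPM in myofibroblast-like cells and fell by 1.55, and in pericyte-like cells, at 44.4 and 14.3 CPM, it fell by 1.64. *Sulf1* went both ways, at 17.2 and 7.83 CPM in gCap-like cells, where it fell by 1.14, and at 7.80 and 28.1 CPM in pericyte-like cells, where it rose by 1.85. *Hs2st1*, a 2-O-sulfotransferase of heparan sulfate, was highest in AT1-like cells, at 915 and 927 CPM. Of the receptor partners, 4 of 15 pairs were past 2-fold in these types, 2 higher and 2 lower. *Flrt3* in artery-like cells was among the lower. *Ncam1* stood at 26.6 and 5.66 CPM in Tcf21 fibroblast-like cells and fell by 2.23. In aCap-like cells it went the other way, at 18 and 38.5 CPM, and rose by 1.10 (0.49 to 1.78), as did *Cdh2*, at 7.82 and 15.9 CPM, which rose by 1.02. Over all ECs *Ncam1* stood at 7.59 and 24.7 CPM, a log2 ratio of 1.70 (1.32 to 2.11), or 0.90 with the mix of EC types held at that of hyperoxia, and no EC type but aCap-like cells had it past 2-fold. Over all stromal cells *Cdh2* stood at 62.3 and 31.0 CPM, a log2 ratio of -1.01 (-1.15 to -0.87) that was not corrected for the mix of types. Among 8 adaptors and effectors such as *Frs2* and *Grb2*, 7 were tested in each of the epithelial, stromal and EC types. Past 2-fold were 0 of 70 pairs, beside 6.86% of all genes in these types.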

How the data were processed

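Per the labels, the authors counted UMIs with Cell Ranger (6.1.1 in the methods, 2.1.1 in the processing notes, 3.1.0 in the matrix header) against mm10 and deposited raw counts per gene and barcode, which were used as they are. Python 3.11.15 with numpy 2.4.6, scipy 1.17.1, scikit-learn 1.9.0, igraph 0.11.9 and leidenalg 0.10.2 was used. Barcodes with under 500 genes (345 in room air, 1026 in hyperoxia) or over 20% mitochondrial UMIs (80 and 486) were dropped, then doublets at 0.8% per 1000 barcodes (129 and 1239), found by nearness to simulated doublets. Cells were clustered by Leiden in 5 lineages and again within each. The rule for naming clusters from markers was set after the clusters were seen. The genes and pathway lists were chosen with earlier results of these data known. The 10 genes were measured in every type and plotted in 18, and the text gives their higher levels. List genes are named where past 2-fold in AT1, AT2, Tcf21 fibroblast or myofibroblast-like cells or highest of their list; those named in other types were picked after their values were seen. The 3 genes most alike in pattern are named for each gene. A ratio was tested at a mean of 10 CPM and called past 2-fold at a log2 size of 1. Intervals are exact Poisson, Clopper-Pearson and conditional binomial. edgeR 4.0.16 in R 4.3.3 gave TMM factors as an alternative, beside other filters, doublet numbers, clusterings and scalings. Scripts were tested on simulated data. Positions are RefSeq, build GRCm38.p6. Proteins and sequences were not analysed here.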

Additional observations from a re-analysis of the deposited data

Results flagged for a closer look

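For 3 genes, a pair of cell types moved in opposite directions between the libraries, each with a counting interval to one side of 0, and in no case was the difference between the cell types tested. *Fgfr3* had a log2 ratio of 2.04 in gCap-like cells and -1.03 in AT2-like cells, the latter -0.21 (-1.15 to 0.85) in AT2-like cells free of marker UMIs of other lineages. *Fgfrl1* had a log2 ratio of 1.08 in smooth muscle-like cells and -0.58 in Tcf21 fibroblast-like cells. The former rests on 8 room air UMIs and was 0.76 at the lowest over the alternatives. *Fgf18* had a log2 ratio of 0.65 in myofibroblast-like cells and -1.69 in smooth muscle-like cells, where all 17 room air UMIs came from the shallow cluster.

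*Fgf2* was also present in a stromal cluster that was given no cell type and so entered no comparison, led by the cartilage genes *Col2a1*, *Acan* and *Col9a1*. It held 88.9 CPM in 19 room air cells and 82.1 CPM in 79 hyperoxia cells, a signal in cells outside the named types.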

How the results depend on the processing

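The ratios, lineage shares, shares of cells and counts of the 10 genes were recomputed under other filters, doublet numbers, clusterings, scalings and subsets of cells. The alternatives over clusters that hold both libraries and without clusters of shallow cells (medians under 3000 UMIs), the pooled values at the hyperoxia mix of types and the count without basophil or mast-like cells, were chosen after seeing the data. For the log2 ratio of each gene in its leading type, 113 of the alternative values stayed within the counting interval and 16 left it, and 1 reversed, which means the other sign where the interval with all cells lay to one side of 0. The ratios in other types gave 470, 43 and 4. Ratios whose interval spans 0 also changed sign, among them *Fgf10*, *Fgfr4* and *Fgf1* in their leading types, and count as within or out of the interval. Lineage shares of ligand UMIs stayed in 49 cases and moved in 21, counts per cell type in 207 and 39, and shares of cells with a UMI in 3 and 37. Counts taken as stayed were not all equal. Smooth muscle-like cells, with 3, had 2 with no doublet removal (11.9% of all genes) and with each library clustered on its own (10.8%). They had 2 as a mean over single cells (15.6%) and 4 with no filter on low values (33.9%). Basophil or mast-like cells had 3 in place of 2 with totals free of mitochondrial, ribosomal and haemoglobin genes (28.9%). The cause of these moves was not tested.

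Without cells that held a UMI of another lineage's guard genes, 270 room air cells (7.34%) and 473 hyperoxia cells (4.52%) were left, with 14 and 30 Tcf21 fibroblast-like cells. There the leading-type log2 ratio of *Fgf7* reversed to -1.27 (0.32 with all cells), and that of *Fgf10* was -1.57, of *Fgfr3* 0.51, of *Fgfr4* 0.92, of *Fgf1* 0.48 and of *Fgf18* 1.88. In myofibroblast-like cells *Fgfr2* reversed to 0.24 (-2.09 to 2.46, from 5 and 4 UMIs) and *Fgf2* to -0.17 (-1.91 to 1.43, from 10 and 6 UMIs), and in smooth muscle-like cells *Fgf2* reversed to -1.74 (-8.03 to 4.56, from 1 and 1 UMI), where 75.1% of all genes were past 2-fold, so these intervals span 0. With 30 cells per library asked for, AT2-like cells were the only type left. The count of 1 pair past 2-fold in place of 10 is thus 1 of 4 tested there, *Fgfr1*, beside 7.58% of all genes. It is no count of pairs lost. *Fgfr3* stood at 2.14 (0.34 to 3.99, from 6 and 7 UMIs) in gCap-like cells, where 32.1% of all genes were past 2-fold, and at -0.21 (-1.15 to 0.85, from 12 and 45 UMIs) in AT2-like cells.

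Over clusters that hold both libraries, the ratio was 0.28 for *Fgfr1*, 0.86 for *Fgfr3*, 0.38 for *Fgfr4*, -0.07 for *Fgf2*, 1.86 for *Fgf7* and 1.38 for *Fgf10*, and the genes past 2-fold numbered 4 in Tcf21 fibroblast-like (where 33.9% of all genes were), 1 in aCap-like (7.12%), 0 in gCap-like (12.2%) and 0 in AT2-like cells (7.68%). Shares in brackets here and below are of all genes under the same setting. As a mean over single cells, the ratio was 0.31 for *Fgfr1*, -0.72 for *Fgfr2*, 0.14 for *Fgfr4* and 0.17 for *Fgf10*, and the counts were 1 of 6 in AT1-like (21.4%), 4 of 4 in vein-like (18.9%) and 4 of 4 in basophil or mast-like cells (42.6%).

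With no doublet removal the AT1-like ratio of *Fgf1* was -0.35, the counts were 1 in AT1-like (7.73%), 0 in AT2-like (3.25%), 2 in neutrophil-like (12%) and 1 in pericyte-like cells (4.67%), and the stromal share in hyperoxia was 95.3% for *Fgf2*, 96.5% for *Fgf7*, 96.2% for *Fgf10* and 94.8% for *Fgf18*. With double the doublets removed *Fgfr1* in interstitial macrophage-like cells reversed to -0.25 (0.57 before), vein-like cells had 0 genes past 2-fold (17.5%), and in hyperoxia the epithelial share of *Fgf1* was 38.3% and the stromal share 97.0% for *Fgf7* and 97.5% for *Fgf18*. At clustering resolution 0.5 the stromal share in hyperoxia was 95.2% for *Fgf2*, 96.6% for *Fgf7*, 96.2% for *Fgf10* and 96.1% for *Fgf18*. With each library clustered on its own it was 96.1% for *Fgf2*, 97.2% for *Fgf7* and 96.1% for *Fgf18*, and there and at resolution 2 interstitial macrophage-like cells had 1 gene past 2-fold (13% and 7.47%). With equal cells per lineage the epithelial share of *Fgf1* was 84.0% in room air and 66.6% in hyperoxia, the stromal share of *Fgf18* 83.8% and 94.5%, and in hyperoxia that of *Fgf2* 95.7%, of *Fgf7* 97.5% and of *Fgf10* 96.2%.

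AT2-like cells had 0 genes past 2-fold with TMM factors (3.24%), with median-of-ratios factors (3.26%) and with totals free of mitochondrial, ribosomal and haemoglobin genes (3.5%). The stricter cell filter left 1 in smooth muscle-like (11.6%) and 0 in vein-like cells (15.5%). A minimum of 50 CPM left 0 in AT2-like (2.53%), 1 in artery-like (3.62%), 0 in smooth muscle-like (5.08%) and 0 in basophil or mast-like cells (12.1%). With no filter on low values, where 24.5% to 45.1% of all genes per type were past 2-fold and many values rest on few UMIs, the counts were 2 in AT1-like, 3 in AT2-like, 1 in Tcf21 fibroblast-like, 3 in aCap-like, 4 in gCap-like, 5 in artery-like, 5 in vein-like, 3 in pericyte-like, 4 in B-like, 6 in T, NK or ILC-like, 4 in alveolar macrophage-like, 4 in interstitial macrophage-like, 6 in classical monocyte-like, 5 in nonclassical monocyte-like, 8 in neutrophil-like and 8 in basophil or mast-like cells. Without clusters of shallow cells 9 pairs were past 2-fold in place of 10. Smooth muscle-like *Fgf18* then had no ratio, since no room air UMI was left. Other settings moved the total further. At the minimum of 50 CPM the only pairs left were 1 each in artery-like (3.62%), gCap-like (3.8%) and vein-like cells (6.16%). With the stricter cell filter they were 1 in AT2-like (3.25%), 2 in artery-like (11.9%), 1 in gCap-like (5.27%) and 1 in smooth muscle-like cells (11.6%). The mean over single cells and no filter on low values raised the total.

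Over all alternatives, the log2 ratio of *Fgfr3* ranged from 0.95 to 2.19 in gCap-like cells, from 1.04 to 3.42 in artery-like cells and from -1.18 to -0.21 in AT2-like cells, that of *Fgfr2* in AT2-like cells from -0.72 to -0.51, and that of *Fgf18* in myofibroblast-like cells from 0.61 to 1.88. Settings without a cell type in a library gave no value. No paired analysis was possible because each group was 1 library and no result comes from a test. Mouse to mouse variation, cell loss in digestion and library effects cannot be told apart from oxygen here, and genes with under 10 UMIs in a type have wide intervals.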

Other observations

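In the cartilage-led stromal cluster of 19 room air and 79 hyperoxia cells, *Fgfr1* stood at 175 and 281 CPM, *Fgf7* at 80.5 and 65.7 CPM, *Fgf10* at 22.2 and 49.3 CPM, and *Fgfr3* at 63.9 and 93.7 CPM. Adventitial fibroblast-like cells, 24 and 152 in number, held 159 and 216 CPM of *Fgfr1*, 46.4 and 37.0 CPM of *Fgf2*, 46.4 and 35.4 CPM of *Fgf7* and 17.7 and 23.3 CPM of *Fgf10*. RNA of *Fgfr1* and of several FGF ligands was thus present in both groups. Club-like cells, 29 in room air and 7 in hyperoxia, held 45.3 and 105 CPM of *Fgfr2*, from 82 and 12 UMIs, and 49.2 and 61.2 CPM of *Fgf1*, from 89 and 7 UMIs. *Fgfr1* in dendritic-like cells stood at 39.6 and 52.4 CPM, from 20 and 52 UMIs.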
